A study of Drosophila melanogaster with 6 samples.

Results

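The 3 yolk protein genes and 7 further genes of fat body and lipid metabolism were followed through messenger RNA of sorted brain neurons of Drosophila melanogaster. The 10 genes were Yp1, Yp2 and Yp3, the storage and larval fat body protein genes Lsp2, Fbp1 and Fbp2, and the lipid genes FASN1, apolpp, bmm and Lsd-1. They were chosen by symbol as transcripts of the female fat body, and each matched 1 of the 17117 rows of the authors' deposited table. The insect fat body, which combines the tasks of liver and adipose tissue, surrounds the brain in the head capsule and secretes yolk proteins into the blood of adult females, from which growing oocytes take them up. Follicle cells of the ovary make yolk proteins as well. Transcription of the yolk protein genes depends on the female form of Doublesex and on ecdysone and juvenile hormone, whereas lipid synthesis, lipoprotein and lipase genes act in many cells, with their bulk in the fat body.

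The cells were γ5β′2a, β′2mp and β′2mp_bilateral mushroom body output neurons, sorted by fluorescence from brains of mated females aged 3 to 4 days after eclosion and dissected between ZT12 and ZT13.5. All flies carried UAS-CD8::GFP and the split-GAL4 hemidrivers R14C08-p65.AD and R15B01-GAL4.DBD, together called MB011B. The bantam group carried UAS-bantam_sponge with each hemidriver, and the control group UAS-scramble_sponge with each, so that both groups expressed GFP and a sponge transcript. A sponge carries binding sites meant to hold a microRNA away from its targets. Sponge and GFP are made where both hemidrivers are active, and whether any fat body cell is among these is not stated in the labels. Each group had 3 libraries described as biological replicates, and the p-values below come from comparing these libraries. A small edgeR exact p can come from reads in 1 library, as for PPO1 below. Such a p therefore does not show that the libraries of a group agreed.

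The authors' deposited table lists for each gene a log2 fold change (positive where bantam sponge is higher), a mean log2 CPM (CPM being reads of a gene relative to the size of its library) and an unadjusted p from an exact test, without values per library. Whole read counts per library were reconstructed from these figures for 9 of the 10 genes and are called reads here. The libraries had effective sizes of 119.1, 43.8 and 8.18 megareads with the bantam sponge and of 98.0, 43.6 and 5.31 megareads with the scramble sponge, and each is named by its size, since the replicate number behind it is not known. The 10 pan-neuronal and glutamatergic genes examined all had reads, at mean log2 CPM of 8.24 to 10.70 in the authors' deposited table. A read amplified by PCR is not an independent molecule, so intervals and limits from reads cover counting error only.

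Reads of the reconstructed yolk protein and fat body genes lay almost entirely in the scramble sponge libraries, and there in different libraries for different genes. Of the 9 reconstructed genes 5 had more than 3 reads in any library: Yp1, Yp2, Yp3, apolpp and bmm. Summed over the 9 genes, the bantam sponge libraries of 119.1, 43.8 and 8.18 megareads held 2, 19 and 0 reads. The scramble sponge libraries of 98.0, 43.6 and 5.31 megareads held 670, 7910 and 624. At more than 3 reads, these 3 scramble sponge libraries held 2, 4 and 3 of the genes, and no library held all 5. In a bulk sample, fewer cells of a kind and less RNA per cell cannot be told apart.

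**Figure D1:**
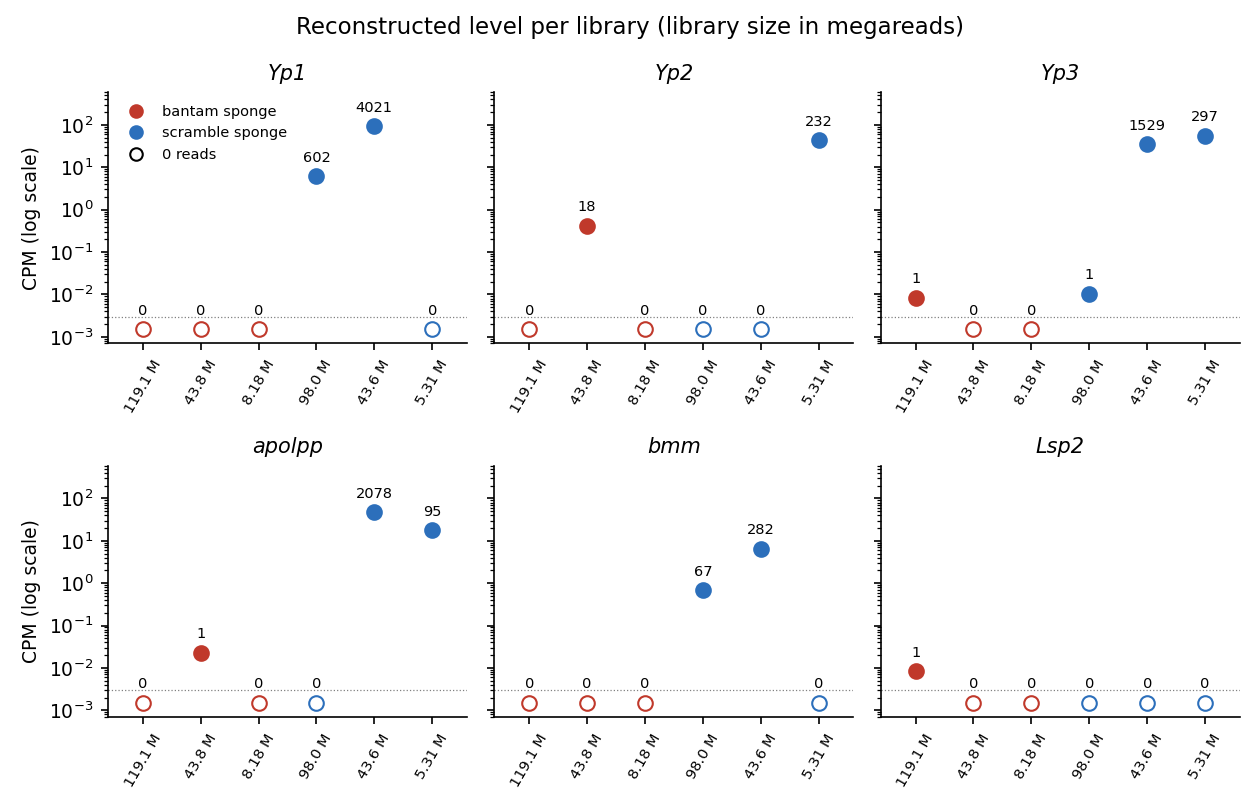
Level of 6 genes in each library, in CPM on a log axis, with the read count above each point; libraries are ordered by genotype and size in megareads, and open circles below the dotted line are libraries with 0 reads. Filled blue points (scramble sponge) stand high in 1 or 2 libraries for each gene but Lsp2, and the highest red point (bantam sponge) is the 18 reads of Yp2.

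No gene of the 10 passed an adjusted p of 0.05 in the authors' edgeR exact test after Benjamini-Hochberg adjustment over the 17117 rows, where 0% of all rows passed, with 0.467 as the smallest value. Yp1 and Yp3 had lower values in bantam sponge with an unadjusted p under 0.05 by that test. They make 2 of the 7 genes with reads, against 4.18% of the 9286 rows with reads, 3.12% lower and 1.06% higher. Over all 17117 rows these shares were 2.27%, 1.69% lower and 0.573% higher. The authors' deposited table put the fold of 5 of the 7 genes below 0 and of FASN1 and Lsp2 above it, against 53.5% of the rows with reads below 0. The median log2 fold of the 7 genes was −9.99, and −8.95 over 6 of them when genes without reads in 1 genotype were set at the bound that 3 reads allow, against −0.13 for all rows with reads. Of the gene lists described below, further fat body genes had a median of −10.79, and hemocyte genes −8.50. Photoreceptor genes had −8.40, and lipid droplet and lipolysis genes −7.56. With the same bounds, these medians were −6.78 for further fat body genes, −6.97 for hemocyte, −4.80 for photoreceptor and −6.90 for lipid droplet and lipolysis genes. The other lists with reads ran from −3.81 (oenocyte) to 1.16 (glia). The 10 genes were chosen with earlier results of these data known, so these counts are a description.

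**Figure D2:**
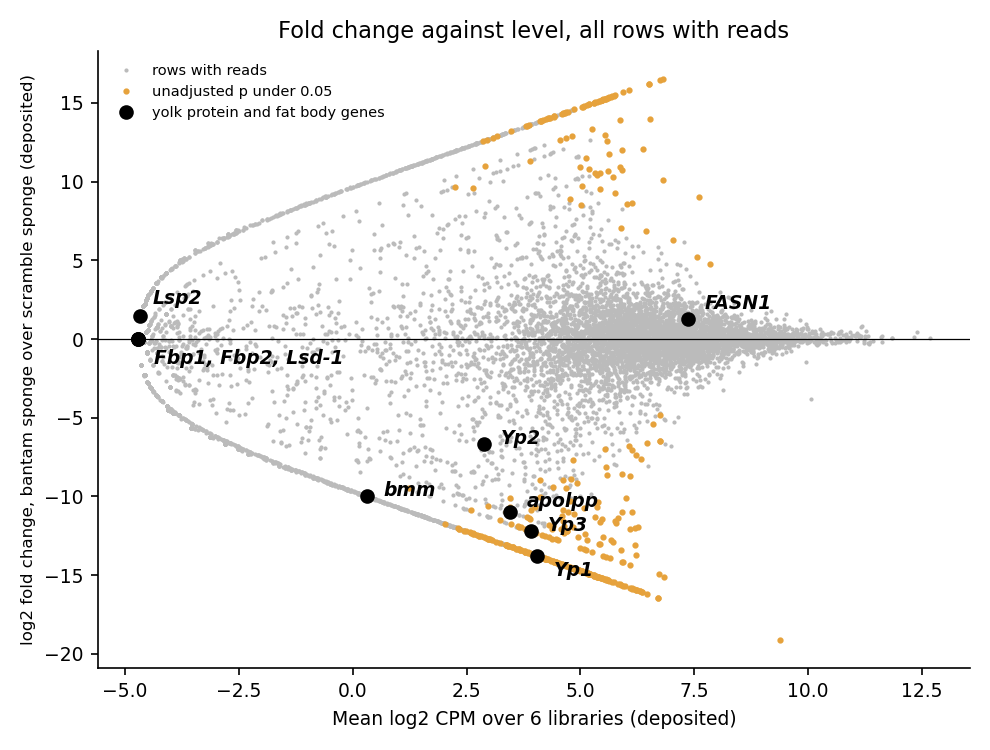
Log2 fold change (vertical, positive where bantam sponge is higher) against mean log2 CPM (horizontal) from the authors' deposited table, with rows with reads in grey, rows at an unadjusted p under 0.05 in orange and the 10 genes in black. Yp1 and bmm lie on the lower edge, where rows without any bantam sponge read fall, Yp3 and apolpp lie just above it, and FASN1 lies among the abundant genes near 0.

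Yp1 encodes a yolk protein secreted by the female fat body and ovarian follicle cells (FBgn0004045, X, 10053811 to 10055498, plus strand, dm6). It had 0 reads in each bantam sponge library, and 602, 4021 and 0 reads in the scramble sponge libraries of 98.0, 43.6 and 5.31 megareads. These are levels of 6.14, 92.3 and 0 CPM. The groups overlapped at 0, because the smallest scramble sponge library, like the bantam sponge libraries, held no Yp1 read. The mean was 32.8 ± 51.6 CPM (SD, n = 3) in scramble sponge and 0 in bantam sponge. Pooled over libraries, 0 bantam sponge reads allow up to 0.0175 CPM, so that Yp1 was at least 1794-fold lower there than the 31.5 CPM of pooled scramble sponge. By edgeR's exact test, p was 0.0335 in the authors' deposited table, and 1 after adjustment over all rows. An exact two-sided permutation test of the 3 levels against 3 gave p = 0.4, where the smallest possible is 0.1. The 43.6-megaread library held 87.0% of the Yp1 reads, and without it the bound was at least 332-fold. The bound was 4689-fold without the 98.0-megaread scramble sponge library and 545-fold without the 119.1-megaread bantam sponge library. Of the 1611 exonic bases of Yp1, 875 (54.3%) are shared with the opposite-strand gene asRNA:CR45601, and these unstranded libraries cannot assign reads there by strand.

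Yp2 is the neighbour of Yp1 and encodes a second yolk protein of the same lipase-related family (FBgn0005391, X, 10050951 to 10052636, minus strand). The pair is divergently oriented, with 1174 bases and no annotated gene between them. Yp2 had 0, 18 and 0 reads in the bantam sponge libraries of 119.1, 43.8 and 8.18 megareads, and 0, 0 and 232 reads in the scramble sponge libraries of 98.0, 43.6 and 5.31 megareads. The levels were 0.411 CPM in the 1 bantam sponge library and 43.7 CPM in the 1 scramble sponge library with reads. The smallest scramble sponge library was thus the only one high for Yp2, and the groups overlapped. Yp1 and Yp2 had no library in common: the 43.6-megaread library with 92.3 CPM of Yp1 held no Yp2 read, which allows up to 0.0689 CPM. In the 5.31-megaread library with 43.7 CPM of Yp2, 0 reads of Yp1 allow up to 0.565 CPM. Means of Yp2 were 14.6 ± 25.2 CPM in scramble sponge and 0.137 ± 0.237 CPM in bantam sponge (SD, n = 3). The pooled ratio of scramble over bantam sponge had an exact 95% counting interval of 9.29 to 25.8. It was 4.56 without the 119.1-megaread bantam sponge library and 45.1 without the 98.0-megaread scramble sponge library. Without the 5.31-megaread library, no scramble sponge read of Yp2 remained. In the authors' deposited table the log2 fold was −6.68, with an implied 95% interval of −19.40 to 6.03 (edgeR exact p = 0.303). The exact permutation p was 1.

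Yp3, the third yolk protein gene, lies 3.70 megabases further along the X chromosome (FBgn0004047, 13759546 to 13761547, plus strand). It had 1, 0 and 0 reads in the bantam sponge libraries of 119.1, 43.8 and 8.18 megareads, and 1, 1529 and 297 reads in the scramble sponge libraries of 98.0, 43.6 and 5.31 megareads. The scramble sponge levels were 0.0102, 35.1 and 56.0 CPM, and the largest bantam sponge level was 0.00840 CPM. The middle and smallest scramble sponge libraries were high. The groups did not overlap in CPM, but the 98.0-megaread scramble sponge library and the 119.1-megaread bantam sponge library held 1 read each. Their levels of 0.0102 and 0.00840 CPM differ through library size alone. Means were 30.4 ± 28.3 CPM in scramble sponge and 0.00280 ± 0.00485 CPM in bantam sponge (SD, n = 3). The pooled ratio of scramble over bantam sponge was 2127, with an exact 95% counting interval of 381 to 84054. It was 493 without the 43.6-megaread scramble sponge library, which held 83.7% of the Yp3 reads of its group, and 6388 without the 98.0-megaread one. Without the 119.1-megaread bantam sponge library, Yp3 was at least 215-fold lower in bantam sponge. The log2 fold in the authors' deposited table was −12.21, with an implied 95% interval of −23.04 to −1.38 (edgeR exact p = 0.0271, adjusted p = 1). With a t quantile on 4 degrees of freedom in place of the normal one, the upper bound was 3.13, and the interval held 0. The exact permutation p of 0.1, the smallest that 3 against 3 can give, rests on that difference in library size. Yp3 shares no exonic base with another annotated gene.

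The storage and larval fat body genes were almost without reads. Lsp2 encodes a hexamerin, a storage protein of the larval blood (FBgn0002565, 3L, 12129393 to 12131869), and had 1 read, in the 119.1-megaread bantam sponge library. Of its exonic bases 84.6% are shared with the opposite-strand gene asRNA:CR11538. Fbp1, which encodes a receptor through which larval fat body cells take up hexamerins (FBgn0000639, 3L, 14094589 to 14098053), had no read in any library. Fbp2, a fat body protein gene related to alcohol dehydrogenase (FBgn0000640, 2L, 9426784 to 9427917), had none either. For a gene without reads, the limits over pooled libraries are 0.0175 CPM in bantam sponge and 0.0204 CPM in scramble sponge. The 3 other hexamerin genes examined, Lsp1alpha, Lsp1beta and Lsp1gamma, also had no read in any library.

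FASN1 encodes fatty acid synthase, which makes long-chain fatty acids (FBgn0283427, 2L, 3056598 to 3068177, plus strand). It was the 1 abundant gene of the 10, at a mean log2 CPM of 7.36 in the authors' deposited table. Its log2 fold there was 1.25, with an implied 95% interval of −2.46 to 4.95 (edgeR exact p = 0.509). The interval holds many-fold changes in both directions. Of 18114 combinations of counts in few libraries that gave its mean level, 0 gave its fold and p as well. Combinations over more libraries were not searched, so no reads per library could be given.

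The lipoprotein gene apolpp encodes apolipophorin, the protein core of lipophorin, which carries lipid through the blood (FBgn0087002, 4, 1060969 to 1077273, plus strand). It had 0, 1 and 0 reads in the bantam sponge libraries of 119.1, 43.8 and 8.18 megareads, and 0, 2078 and 95 reads in the scramble sponge libraries of 98.0, 43.6 and 5.31 megareads. The middle and smallest scramble sponge libraries were high, at 47.7 and 17.9 CPM, and the groups overlapped at 0. Means were 21.9 ± 24.1 CPM in scramble sponge and 0.00762 ± 0.0132 CPM in bantam sponge (SD, n = 3). The pooled ratio of scramble over bantam sponge was 2530 (exact 95% counting interval 454 to 99964). The 43.6-megaread library held 95.6% of the scramble sponge reads, and without it the ratio was 157. The ratio was 7602 without the 98.0-megaread scramble sponge library and 768 without the 119.1-megaread bantam sponge library. Without the 43.8-megaread bantam sponge library, apolpp was at least 627-fold lower in bantam sponge. The log2 fold in the authors' deposited table was −10.97, with an implied 95% interval of −22.65 to 0.72 (edgeR exact p = 0.0658). The exact permutation p was 0.4. Of the exonic bases of apolpp, 6.56% are shared with opposite-strand features, among them Zyx.

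The lipase gene bmm encodes Brummer, the adipose triglyceride lipase that releases stored fat (FBgn0036449, 3L, 14776496 to 14786412, minus strand). It had 0 reads in each bantam sponge library, and 67, 282 and 0 reads in the scramble sponge libraries of 98.0, 43.6 and 5.31 megareads. The levels were 0.684 and 6.47 CPM in the first 2 of these, and the groups overlapped at 0. The mean was 2.39 ± 3.56 CPM (SD, n = 3) in scramble sponge. Against the bantam sponge limit of 0.0175 CPM, bmm was at least 135-fold lower there in the pooled libraries. The 43.6-megaread library held 80.8% of the bmm reads, and without it the bound was at least 37.0-fold. The bound was 329-fold without the 98.0-megaread scramble sponge library and 41.1-fold without the 119.1-megaread bantam sponge library. The edgeR exact p in the authors' deposited table was 0.0948, and the exact permutation p was 0.4. Lsd-1, the perilipin gene of lipid droplets (FBgn0039114, 3R, 23763857 to 23766662), had no read in any library.

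Adjusted over the 5 genes tested by permutation (Yp1, Yp2, Yp3, apolpp and bmm), the Benjamini-Hochberg p was 0.5, 1, 0.5, 0.5 and 0.5. With 3 libraries against 3, this test could not pass 0.05. The calls of Yp1 and Yp3 at an unadjusted p under 0.05 ended without single libraries. The exact test was recomputed from the reads with each library left out in turn, keeping the dispersion of the gene. Without the 43.6-megaread scramble sponge library, Yp1 had p = 0.0863 and Yp3 p = 0.0264 in this exact test. Without the 5.31-megaread scramble sponge library, apolpp had an exact p of 0.0493, and Yp2, then without a scramble sponge read, turned in direction. Without 1 bantam sponge library, which held at most 1 read of either gene, the exact p of Yp1 was 0.114 to 0.132 and that of Yp3 0.0978 to 0.115. Fewer libraries enter these fits.

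**Figure D3:**
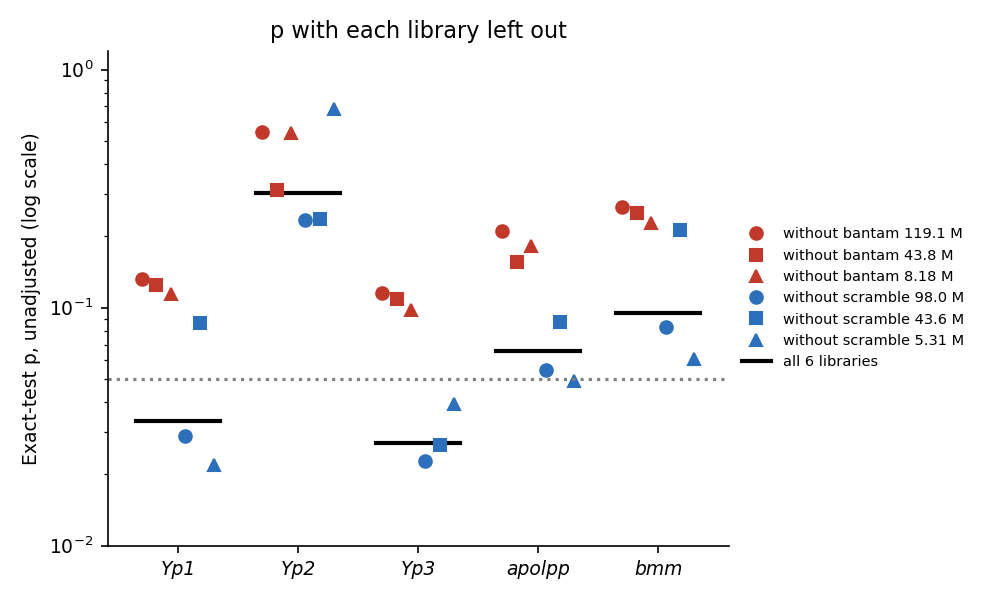
Unadjusted exact p (log axis) of 5 genes with all 6 libraries (black bar) and with each library left out (symbols, red for bantam sponge and blue for scramble sponge); the dotted line is 0.05. The bars of Yp1 and Yp3 lie below the line, and their red symbols lie above it.

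Per kilobase of exonic sequence, the mean level over the 6 libraries was 18.8 CPM for FASN1, 10.2 for Yp1, 8.13 for Yp3, 4.55 for Yp2, 0.929 for apolpp and 0.489 for bmm. Within scramble sponge alone the same measure was 20.4 ± 32.0 for Yp1, 16.3 ± 15.1 for Yp3 and 9.01 ± 15.6 for Yp2 (CPM per kilobase, SD, n = 3). It was 1.86 ± 2.05 for apolpp and 0.979 ± 1.46 for bmm. Each neighbour in this order differed from the next by less than the larger SD of the pair, so the order within scramble sponge does not hold up against the spread. The level of FASN1 carries no SD.

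A pattern of reads in few libraries was common among genes of like abundance. Of the 424 rows within 0.25 log2 CPM of Yp1 in the authors' deposited table, 34.9% had their reads in 1 or 2 libraries, as Yp1 did. For Yp2, with reads in 2 libraries, this share was 49.1% of 230 rows, and for bmm, also in 2, it was 65.5% of 116 rows. Around apolpp, which had reads in 3 libraries, 62.0% of 284 rows had them in 3 or fewer. Yp3 had reads in 4 libraries, in 2 of them 1 read each, and 54.0% of the 385 rows around it had reads in 3 or fewer.

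**Figure D4:**
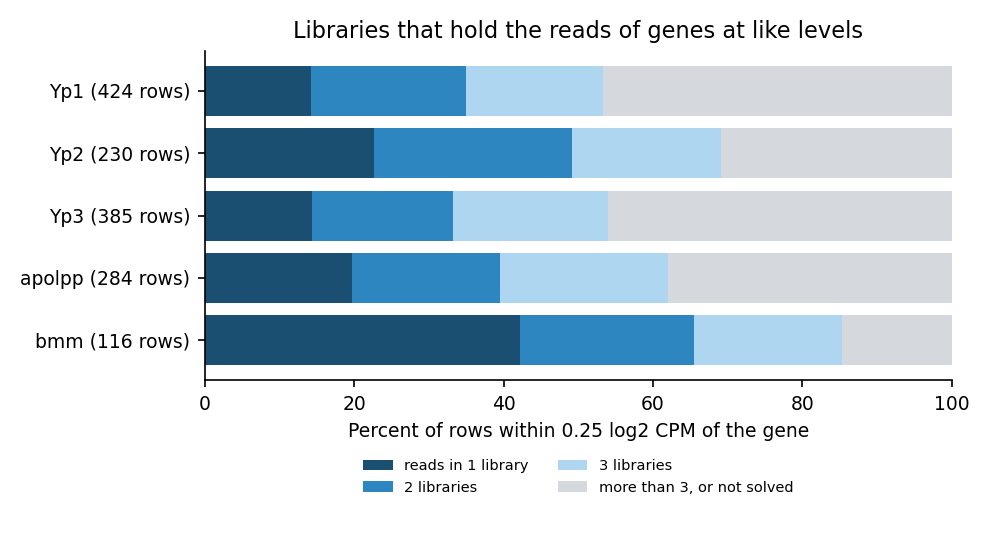
Rows within 0.25 log2 CPM of each gene, as percent of rows by how many of the 6 libraries hold their reads. Grey are rows for which the search over up to 3 libraries gave no solution. Rows with reads in 3 or fewer libraries make up 53.3% around Yp1 and 85.3% around bmm.

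The rows nearest to Yp1 and Yp3 in fold and mean level mostly had other libraries behind them. Likeness was the distance in the plane of these 2 summary values over the 6 libraries. The nearest row to Yp1 was Gem2, with 6014 reads in the 98.0-megaread and 198 in the 5.31-megaread scramble sponge library and none elsewhere. The next was Mal-A5, with 1 read in the 98.0-megaread and 4271 in the 43.6-megaread library. The rows nearest to Yp3 were Trn-SR, with 8807, 0 and 10 scramble sponge reads, and Mulk, with 8566, 272 and 0, in order of falling library size. Each of these 2 had 1 read in the 119.1-megaread bantam sponge library. Of the 4 rows, Mal-A5 alone had most of its reads in the same library as its yolk protein gene.

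Genes that control yolk protein transcription were mostly read, without a call. Of 13 such genes 12 had reads, 6 with folds above and 6 below 0, and no unadjusted p was under 0.05 in the authors' deposited table (edgeR exact test). Sxl, the sex determination gene at the head of the female pathway, was at a mean log2 CPM of 8.06 there, with a log2 fold of 0.10. The Doublesex gene dsx had no read in any library. The GATA factor gene srp, which acts in the fat body and in blood cells, had 29 reads in the 43.6-megaread and 145 in the 5.31-megaread scramble sponge library, and none in the others (edgeR exact p = 0.0859 in the authors' deposited table).

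Ovarian genes were scarce. Of 14 ovary and eggshell genes 6 had reads, 3 with folds above and 3 below 0, and no unadjusted p was under 0.05. The chorion gene Cp15 had 4204 reads in the 43.8-megaread bantam sponge library and 10 in the 5.31-megaread scramble sponge library. That is 96.1 CPM in a bantam sponge library, where Yp2 had 0.411 CPM and Yp1 none. The chorion gene Cp38 had 56 reads, all in the 43.6-megaread scramble sponge library. The yolk protein receptor gene yl, expressed in oocytes, had 2 reads, in the 8.18-megaread bantam sponge library.

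Of 9 further fat body genes 5 had reads, 4 with folds below 0 and 1 above, and none reached an unadjusted p under 0.05. ImpL2, an insulin-binding protein gene, had 6315 reads in the 43.6-megaread scramble sponge library alone (edgeR exact p = 0.0563 in the authors' deposited table). The same library held all 544 reads of sxe2, while the feeding-related gene to had 148 reads, all in the 5.31-megaread one. The insulin-like peptide gene Ilp6 went the other way, with 4451 reads in the 119.1-megaread bantam sponge library and 1 in the 98.0-megaread scramble sponge library. The female fat body gene fit had no read in any library. Summed over the 9 genes, the level was 0 to 37.4 CPM in bantam sponge libraries and 0.0102, 157 and 28.1 CPM in the scramble sponge libraries of 98.0, 43.6 and 5.31 megareads. For the 9 reconstructed genes of the yolk protein and fat body set, the corresponding sums were 0 to 0.434 CPM and 6.84, 182 and 118 CPM.

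Of 19 genes of fatty acid and lipid synthesis 18 had reads, 6 with folds above and 12 below 0, and no unadjusted p was under 0.05. The desaturase gene Desat1 was at a mean log2 CPM of 9.82 with a log2 fold of −0.18 in the authors' deposited table (edgeR exact p = 0.893). CG1942, listed as Dgat2 in RefSeq, an acyltransferase gene of triglyceride synthesis, had 6626 reads, all in the 43.6-megaread scramble sponge library (edgeR exact p = 0.0536 in the authors' deposited table). Of 12 lipid droplet and lipolysis genes 8 had reads, 2 with folds above and 6 below 0. One of them, Mtpalpha, an enzyme of mitochondrial fatty acid oxidation, had a lower value in bantam sponge with an unadjusted p under 0.05 (edgeR exact p = 0.0245 in the authors' deposited table). It had 994, 25 and 356 reads in the scramble sponge libraries of 98.0, 43.6 and 5.31 megareads and none in bantam sponge. The hormone-sensitive lipase gene Hsl was at a mean log2 CPM of 5.56 with a log2 fold of 1.79 in the authors' deposited table (edgeR exact p = 0.620).

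Of 10 genes of lipoprotein assembly and transport 9 had reads, 5 with folds above and 4 below 0, and 2 reached an unadjusted p under 0.05, in opposite directions. Mtp, which loads lipid onto apolipophorin, was lower in bantam sponge at a log2 fold of −8.56 in the authors' deposited table (edgeR exact p = 0.0385). NLaz, a secreted lipocalin gene, was higher, with 11656 reads, all in the 43.8-megaread bantam sponge library (edgeR exact p = 0.0306 in the authors' deposited table). The receptor gene mgl, related to vertebrate megalin, was at a mean log2 CPM of 6.67 with a log2 fold of 0.55 in the authors' deposited table. No lipid gene passed the adjusted threshold.

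Hemocyte and photoreceptor genes whose reads could not be reconstructed were read in both genotypes, while most reads of those that could be lay in the middle and smallest scramble sponge libraries. Of 8 hemocyte genes 6 had reads, 5 with folds below 0 and 1 above. The most abundant, the prophenoloxidase gene PPO2, was at a mean log2 CPM of 10.06 with a log2 fold of −3.81 in the authors' deposited table (edgeR exact p = 0.0988). The peroxidasin gene Pxn was at 9.19 with a log2 fold of 0.72 in the authors' deposited table (edgeR exact p = 0.636), so not all hemocyte markers were near 0 in bantam sponge. PPO1, a prophenoloxidase gene of blood cells, had 21263 reads, all in the 5.31-megaread scramble sponge library (edgeR exact p = 0.000634 in the authors' deposited table), a level of 4007 CPM. The hemocyte genes Hml and Sr-CI had 1183 and 2721 reads in the 43.6-megaread library. Over the hemocyte genes that could be reconstructed, 4 of the 6 with reads and without PPO2 and Pxn, the summed level was 0 to 0.457 CPM in bantam sponge libraries. It was 0, 106 and 4008 CPM in the scramble sponge libraries of 98.0, 43.6 and 5.31 megareads. Of 12 photoreceptor genes 9 had reads, 8 with folds below 0. The most abundant, the phospholipase C gene norpA, was at a mean log2 CPM of 6.63 with a log2 fold of −0.38 in the authors' deposited table (edgeR exact p = 0.851). Over the 7 reconstructed ones, norpA not among them, the sum was 0.0924, 0 and 46.9 CPM in bantam sponge and 0.133, 3.05 and 329 CPM in scramble sponge, each in order of falling library size. The arrestin gene Arr2 had 61 and 662 reads in the 43.6-megaread and 5.31-megaread libraries (edgeR exact p = 0.0445 in the authors' deposited table). The 46.9 CPM in bantam sponge were the rhodopsin gene Rh4, with 384 reads.

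Oenocyte, glial and muscle genes gave no unadjusted p under 0.05. Cyp4g1, the oenocyte enzyme gene of hydrocarbon synthesis, had 279 reads in the 5.31-megaread scramble sponge library and 1 in the 43.8-megaread bantam sponge library, and 2 of the 4 oenocyte genes had reads. All 8 glial genes had reads, 6 with folds above and 2 below 0, with the glutamine synthetase gene Gs2 at a log2 fold of 1.23 and the glial fate gene repo at −6.70 in the authors' deposited table (edgeR exact p = 0.384 and 0.0525). Of 7 muscle genes 6 had reads, 1 with a fold above and 5 below 0. Of the 8 glial genes 2 could be reconstructed, among them the receptor gene moody, with 2762 reads, all in the 119.1-megaread bantam sponge library. The troponin gene up had 9578 reads, all in the 98.0-megaread scramble sponge library (edgeR exact p = 0.0716 in the authors' deposited table), and Mlc2 was at a log2 fold of −0.02 there. The troponin gene wupA had 2560 reads in the 43.8-megaread bantam sponge library and 62 in the 5.31-megaread scramble sponge library. Over the 5 reconstructed muscle genes the sum was 0, 59.4 and 0.244 CPM in bantam sponge and 101, 58.7 and 11.9 CPM in scramble sponge, in order of falling library size. Of the 10 neuronal genes 5 had folds above and 5 below 0, between −0.65 and 0.52 in the authors' deposited table. The most abundant was VGlut, the vesicular glutamate transporter gene, at a mean log2 CPM of 10.70 with a log2 fold of −0.20 in the authors' deposited table (edgeR exact p = 0.887). The smallest p among them was 0.680, for the active zone gene brp (edgeR exact test). The part that such cells, library size or single libraries had in the levels of yolk protein and fat body genes was not tested.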

How the data were processed

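Messenger RNA of sorted neurons was measured in 3 bantam sponge and 3 scramble sponge libraries. Per the labels' protocols, poly(A) RNA was purified on beads and made into libraries by SMART-seq2 and Nextera XT, which do not mark strand. Per the submitters' processing notes, STAR, Picard, HTSeq, edgeR and dm6 were used; their versions and settings are not given in the sources used here. Per gene, the authors' deposited table holds, per the file headers, a log2 fold change, a mean log2 CPM and an unadjusted p-value. The design had allowed for values per library or an adjusted p; the deposited table holds neither, so Benjamini-Hochberg and Holm p-values were computed over all 17117 rows.

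Effective library sizes were solved from rows with 1 read, assuming that the authors kept their tool's usual prior counts, 2 in the mean and 0.125 in the fold. Whole numbers per library were sought that gave the deposited mean within 1e-11. A dispersion was then fitted for each so that it also gave the deposited fold. Numbers were accepted as reads where the p-value at that dispersion met the deposited one (within 1e-06), so the p-value, not the fold, was the remaining check. The search went from few libraries to more and ended at the first solution, and it was tested on simulated data. These sizes include any normalization factor. It covered reads in up to 3 libraries, or up to 2 for abundant list genes. For yolk protein and fat body genes of low abundance it went to more. Genes with reads in more libraries than were searched had no solution. Reads are therefore known mainly for genes with reads in few libraries, and sums over marker lists leave out the others. Implied intervals restate the deposited p with a normal quantile. Counting intervals are exact (95%), and a count of 0 was taken to allow 3 reads. Coordinates and overlaps come from Ensembl release 115 on the dm6 assembly, with symbols also matched through RefSeq. Python 3.11.15 with numpy 2.4.6, scipy 1.17.1 and pandas 2.3.3 was used.

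Named genes are the 10 genes, the most abundant and the smallest-p gene of each of 13 lists (132 genes, of which 3 found no single row), every list gene with an unadjusted p under 0.05, and the 2 rows nearest to each of the 10 genes with such a p. Other list genes named were picked after their values were seen. The 10 genes and the lists were chosen with earlier results of these data known. Other thresholds, adjustments, filters and a t quantile were tried, and, after seeing the data, each library was left out, for tests and pooled ratios, and the tolerance was widened.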

Additional observations from a re-analysis of the deposited data

How the results depend on the processing

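The count of genes with an adjusted p under 0.05 was 0 with Holm adjustment, over rows with reads and over rows at a mean log2 CPM of at least 3, and 2 of the 10 had an unadjusted p under 0.05 by the edgeR exact test. The unadjusted count was 4 at a threshold of 0.1 and 0 at 0.01, and 0 to 3 with each library left out, an alternative chosen after seeing the data. The share of all rows at these other settings is not given here, so these counts cannot be read against the whole table. The exact-test p with each library left out was 0.0218 to 0.132 for Yp1, 0.0227 to 0.115 for Yp3, 0.0493 to 0.210 for apolpp, 0.0610 to 0.265 for bmm and 0.234 to 0.684 for Yp2, whose direction reversed at 0.684, without the 5.31-megaread scramble sponge library. With a t quantile on 4 degrees of freedom the upper bound of the implied log2 interval of Yp3 was 3.13 in place of −1.38. With a prior count of 0.5, the scramble sponge CPM inferred from the deposited fold was 131 for Yp1 and 9.57 for bmm, in place of 32.8 and 2.39. The shifts with the threshold, the t quantile and the prior count follow from those settings themselves. The reads, reconstructed at the prior counts of the main setting, gave 32.8 CPM for Yp1 and 2.39 CPM for bmm. The cause of the shifts with a library left out was not tested, other than that fewer libraries enter each such fit. Rows with an unadjusted p under 0.05 numbered 361 of the 6265 at a mean log2 CPM of at least 3, against 388 of the 9286 with reads. Of the 10 genes 4 lay at that level, and 2 of these had such a p. The list counts, the 5 folds below 0 after centring on the median, and the 9 reconstructed genes at a tolerance 10 times wider stayed within 1.5 times.

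No paired analysis was possible because the deposited table has no column per library and the replicate number of each reconstructed library is not known. A replicate block, TMM against another scaling and a term for the sequencing instrument, which differed between replicates, were not run for the same reason. Instrument and library therefore cannot be told apart.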
